A study of Mus musculus with 119 samples.

Results

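A set of 5 genes of the inhibitory helix-loop-helix (HLH) families were followed through mouse bone marrow-derived macrophages (BMDMs), namely Id1, Id2, Id3, Hes1 and Hey1. They were picked by symbol, as 5 of the 18098 genes in 1 table of normalized mRNA levels on a log2 scale, over 119 libraries in 25 groups. The cultures were grown from bone marrow of C57BL/6(NIMR) mice in L-cell conditioned medium, held overnight in low serum, and given no LPS or 100 ng/ml LPS. LPS is the bacterial lipopolysaccharide that activates macrophages through TLR4. Untreated WT cells were sequenced in 6 libraries before LPS, in 6 each after 0.5 and 1 h, and in 4 after 2 h. Map3k8[D270A] cells, whose TPL-2 kinase is catalytically inactive, were sequenced in 6 libraries at each of these times. Elk1-/-Elk4-/- cells, which lack 2 ternary complex factors that ERK phosphorylates, gave 4 at each time. Nfkb1[SS/AA] cells, whose p105 protein lacks the serines that IKK phosphorylates to release TPL-2, were sequenced in 6 libraries each before LPS and after 0.5 and 1 h. All inhibitor cultures were of WT genotype. PD0325901, an inhibitor of the ERK kinases MEK1/2, was used at 0.1 µM for 10, 40 or 70 min without LPS (3 libraries each, with 3 of DMSO for 10 min), and for 10 min before 0.5 or 1 h of LPS (6 libraries each). RSKi47, an inhibitor of the ERK-activated kinase RSK, was used at 2 µM for 10 min, followed by no LPS (4 libraries) or by 0.5 h (3), 1 h (4) or 2 h (4) of LPS. In the knock-in and knockout mice every cell carried the allele, not macrophages alone.

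The basic HLH (bHLH) transcription factors bind DNA as dimers at short E box sequences. Id proteins carry the dimerization part but no basic, DNA-binding part, so a bHLH factor such as an E protein that pairs with an Id protein cannot bind DNA. Hes and Hey proteins do bind DNA, and repress their targets with corepressors of the Groucho/TLE family. Hes1 and Hey1 are classic targets of Notch receptors, and Id1, Id2 and Id3 are classic targets of bone morphogenetic protein (BMP) and Smad signalling. In blood cells the Id genes are best known for steering lymphoid and dendritic cell fates, and Hes1 and Hey1 are known to restrain inflammatory genes in macrophages.

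In the RefSeq annotation of GRCm38.p6, the build that corresponds to mm10, Id1 lies on the plus strand at chr2:152736251-152737410 and Id2 on the minus strand at chr12:25093799-25096092. Id3 lies on the plus strand at chr4:136143822-136145392, Hes1 on the plus strand at chr16:30065357-30067796 and Hey1 on the minus strand at chr3:8663359-8667038. No other annotated gene lay within 1 kb of any of them. Promoter windows of 300 bases, from 250 before to 50 after the start, were matched for 2 of the 5, Id2 and Id3, the only members in the promoter table used. The stretches around their motif matches, from RefSeq on GRCm38.p6 and read 5′ to 3′ on the strand of the gene, are printed because both genes moved within 0.5 h of LPS. Capitals mark the match, in either orientation: a CANNTG E box, the sequence that bHLH dimers bind, a CCAAT box, a TATAA box or a GGGCGG (GC) box. The first is at chr12:25096271-25096300, the second at chr12:25096195-25096224, the third at chr12:25096093-25096122, the fourth at chr4:136143781-136143810 and the last at chr4:136143716-136143745.
Id2 E box: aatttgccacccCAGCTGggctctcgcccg
Id2 CCAAT box: agctcatactcaCCAATgggagaattcgcc
Id2 GC box: acataaaagacgccCCGCCCggctcgcgct
Id3 TATAA box: tagagaggactcTATAAgagtcggccgctg
Id3 GC boxes: aggcggtgcccaGGGCGGGCGGgggtggac

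The Id2 window held CCAAT matches at -159, -120 and -76 from the start, a CANNTG match at -196, a GGGCGG match at -16 and, 17 bases into the gene, a CACNAG match (an N box, a sequence bound by Hes repressors). The Id3 window held a TATAA match at -29 and GGGCGG matches at -94 and -90 that overlap each other. In the GENCODE annotation all printed stretches but that of the Id2 E box lie within an exon of a longer transcript of the same gene, so the start meant here is that of RefSeq. Of all 32851 windows, searched on both strands, 72.3% held CANNTG, 37.4% CCAAT, 42.5% CACNAG, 24.9% TATAA and 35.7% GGGCGG. Neither window held CCGGAAG (an ETS-type site, in 8.86% of windows), TGANTCA (AP-1, 7.81%), a CArG box (the serum response factor site, 1.63%) or an NF-kB site (4.51%).

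The targeted transcripts followed the labels where the allele removes mRNA. Elk1 stood at 6.17 to 6.59 in the Elk1-/-Elk4-/- libraries against 9.04 to 9.49 in WT, and Elk4 at 5.51 to 5.88 against 7.57 to 8.49. The Map3k8 and Nfkb1 alleles change protein residues and cannot be checked by mRNA level. All 8 macrophage markers were high, with a summed level of 18.61 to 18.80 in WT and 18.37 to 18.46 in Elk1-/-Elk4-/- cells without LPS, and these groups did not overlap at any LPS time either. The summed level of 8 neutrophil markers was 6.24 to 7.74 in WT, 7.54 to 8.25 with DMSO, 7.29 to 8.81 with PD0325901, 7.08 to 8.59 with RSKi47, 6.73 to 8.35 in Nfkb1[SS/AA] and 10.04 to 11.04 in Elk1-/-Elk4-/- cells, at all LPS times in each. All 8 of these markers peaked in an Elk1-/-Elk4-/- library, S100a9 at 9.75 and Ngp at 9.10, while the defining genes Mpo, Elane and Ly6g reached 2.23, 0.95 and 0.60. Libraries of each genotype or inhibitor other than WT and Map3k8[D270A] carry an experiment label of their own, so that experiment and condition cannot be told apart in a comparison with WT. A constant offset between experiments drops out only where the LPS response, the LPS level minus the level without LPS, is compared. In these bulk cultures, more mRNA per cell and a larger share of expressing cells cannot be told apart. The 3 libraries that lay furthest from their group means were Nfkb1[SS/AA] replicate 2 at 1 h, RSKi47 replicate 4 at 2 h and Map3k8[D270A] replicate 4 at 2 h.

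LPS raised Id3 and Id2 in WT cells at every time and Id1 at 1 h. Id3, an Id protein known as an early target of growth factor and BMP signals, went from 5.68 to 6.12 (median 5.94) without LPS to 7.03 to 8.30 (median 7.56) at 0.5 h and 8.58 to 9.05 (median 8.77) at 1 h. At 2 h the 4 libraries were at 6.98, 7.13, 7.08 and 7.00. None of these groups overlapped the level without LPS, the peak was at 1 h, and at 2 h Id3 was still above its starting level. The differences were 1.69 (SE 0.14, adjusted p = 8.36e-15) at 0.5 h, 2.85 (adjusted p = 2.86e-25) at 1 h and 1.12 (SE 0.15, adjusted p = 5.01e-09) at 2 h, by limma with Benjamini-Hochberg adjustment, as are all adjusted p values here. All differences are on the deposited log2 scale and are not turned into folds, because the transformation behind it is not stated.

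Id2, an Id protein that lymphoid and dendritic lineages need, started from 11.33 to 11.57 (median 11.46) and reached 12.05 to 12.31 (median 12.23) at 0.5 h and 12.55 to 12.86 (median 12.67) at 1 h. At 2 h its 4 libraries were at 12.16, 12.19, 12.54 and 12.11, and no group with LPS overlapped the group without. It rose by 0.75 (SE 0.07, adjusted p = 8.27e-12), 1.22 (adjusted p = 7.21e-21) and 0.79 (SE 0.08, adjusted p = 2.14e-12). Id1, a BMP target in many cell types, was at 3.28 to 3.49 (median 3.35) without LPS, close to the filter on low values at 3.32. At 1 h it was at 4.08, 4.10, 4.15, 4.36, 4.46 and 4.40, all above the level without LPS, and it rose by 0.89 (SE 0.10, adjusted p = 1.24e-10). At 0.5 h it differed by 0.22 (adjusted p = 0.175) and at 2 h by 0.06 (adjusted p = 0.672), neither of which passed the test.

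Among the 3 members tested, 2 were called at 0.5 h, 3 at 1 h and 2 at 2 h, beside 11.6%, 46.8% and 71.5% of all genes tested. By size of the difference from the highest down, Id3 ranked 40, 73 and 795 of 11884 genes at the 3 times and Id2 ranked 108, 303 and 1190. At 0.5 h the WT libraries fell into sets that the labels do not name: Id3 stood at 7.18, 7.03 and 7.23 in replicates 4 to 6 and at 8.05, 8.30 and 7.90 in replicates 7 to 9, a rise of 1.15 in the former and 2.23 in the latter. At 1 h these sets were at 8.82, 8.87 and 9.05 and at 8.65, 8.71 and 8.58. Under quantile normalization the 2 h difference of Id2 was 0.43.

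**Figure D1:**
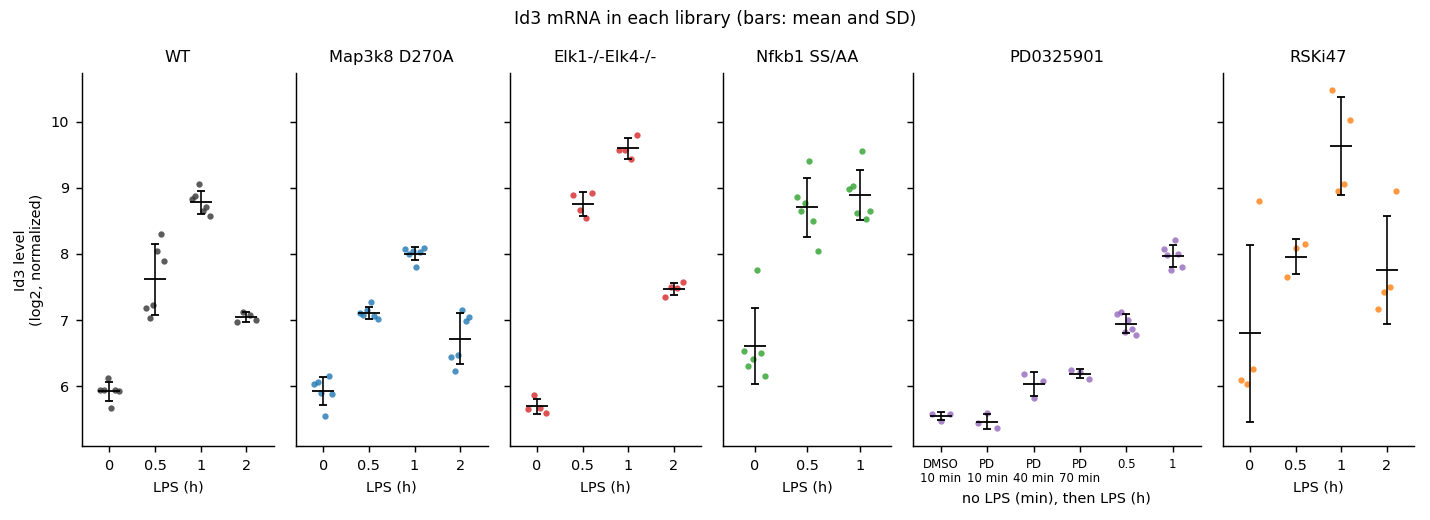
Id3 mRNA level (vertical axis, normalized log2) in each library by LPS time in h, or by time with DMSO or PD0325901 in min, in panels for WT, Map3k8[D270A], Elk1-/-Elk4-/-, Nfkb1[SS/AA], PD0325901 and RSKi47. Points are libraries, and bars are the mean and SD. The 1 h means are 8.78 in WT, 8.01 in Map3k8[D270A] and 9.59 in Elk1-/-Elk4-/- cells, and a single RSKi47 library without LPS stands at 8.80.

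Loss of TPL-2 kinase activity was compared with WT at each time, which asks how far the LPS induction of these genes runs with an active TPL-2. WT and Map3k8[D270A] libraries share 1 experiment label. Without LPS, the 3 members tested did not pass the test, beside 1.44% of all genes called, and the Id3 libraries ran from 5.55 to 6.15 (median 5.96). At 0.5 h Map3k8[D270A] cells had Id3 at 7.02 to 7.27 (median 7.09), overlapping WT replicates 4 to 6 and below replicates 7 to 9. At 1 h they had 7.81 to 8.08 (median 8.04), and all 6 libraries lay below all 6 WT libraries.

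Id3 was lower in Map3k8[D270A] cells by 0.77 at 1 h (SE 0.14, adjusted p = 5.34e-05), where 2 of 3 members were called beside 9.79% of all genes. At 0.5 h it was lower by 0.50 (SE 0.14, adjusted p = 0.0475), the 1 member called beside 1.37% of all genes. That call did not hold with the replicate block, without WT replicate 7 (-0.41), 8 (-0.36) or 9 (-0.44), or without any 1 of 5 of the 6 Map3k8[D270A] replicates (-0.48 to -0.51). It rested on the later WT set: the difference was -0.03 against WT replicates 4 to 6 and -0.97 against replicates 7 to 9, each with 3 Map3k8[D270A] libraries. At 2 h Id3 was at 6.44, 6.23, 6.47, 7.15, 6.98 and 7.05 in Map3k8[D270A] cells, a difference of -0.33 from WT (adjusted p = 0.112) that was called, at -0.41, when replicate 4 was left out.

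Id1 at 1 h was at 3.80 to 4.03 (median 3.93) in Map3k8[D270A] cells, below the lowest WT library, and was lower by 0.35 (SE 0.10, adjusted p = 0.0211); without WT replicate 8 the difference was -0.31 and not called. Id2 at 1 h ran from 12.54 to 12.81 and differed from WT by -0.01. At 2 h Id2 was at 11.71 to 12.19 (median 12.01) and was lower by 0.26 (SE 0.08, adjusted p = 0.0135), the 1 member called beside 27.7% of all genes. The Id2 groups overlapped, and the call was lost without WT replicate 6 (-0.17) or Map3k8[D270A] replicate 4 (-0.21). As an LPS response, the rise of Id3 at 1 h was 2.08 against 2.85 in WT, a difference of -0.78 (SE 0.19, adjusted p = 0.0155, beside 2.02% of all genes called). That of Id2 at 2 h differed by -0.34 (SE 0.11, adjusted p = 0.0260, beside 15.5%). The first was not called without Map3k8[D270A] replicate 5 (-0.74), and the second was not without WT replicate 6 (-0.25) or Map3k8[D270A] replicate 1 (-0.32) or 4 (-0.29).

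Blocking MEK1/2 with PD0325901 asks the same of the step below TPL-2. With LPS, Id3 was lower than in WT cells at both times, as in the Map3k8[D270A] comparison, which shares its WT controls. At 0.5 h the 6 PD0325901 libraries were at 6.78 to 7.12 (median 6.93), overlapping WT replicates 4 to 6, and at 1 h they were at 7.75 to 8.21 (median 7.99), all below WT. The differences were -0.67 at 0.5 h (SE 0.23, adjusted p = 0.0227) and -0.81 at 1 h (SE 0.23, adjusted p = 0.00413). Of Id1, Id2 and Id3, only Id3 was called at 0.5 h, beside 29.4% of all genes, and Id3 and Id2 were called at 1 h, beside 35.7%.

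Id2 moved the other way at 1 h: it was at 12.91 to 13.12 (median 12.98) with PD0325901, above every WT library, and higher by 0.32 (SE 0.06, adjusted p = 1.53e-05). Id1 at 1 h was at 3.78 to 4.19, a difference of -0.25 (adjusted p = 0.0558) that was called, at -0.28 to -0.29, without WT replicate 4 or 5 or PD0325901 replicate 4. The Id3 call at 0.5 h was lost without WT replicate 7 (-0.58), 8 (-0.53) or 9 (-0.61), and when PD0325901 libraries were averaged in pairs (replicates 1 and 4, 2 and 5, 3 and 6), and it stood at -0.20 against WT replicates 4 to 6. The Id3 call at 1 h was lost against WT replicates 7 to 9 alone (-0.67). The WT controls had no DMSO, and neutrophil markers were higher with PD0325901 (5 of 5 tested at each time), whose part in these values was not tested.

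Without LPS the members were followed with the inhibitor alone. Id3 was at 5.58, 5.48 and 5.58 with DMSO and at 5.44, 5.59 and 5.36 after 10 min of PD0325901. It then stood at 6.18, 5.83 and 6.08 after 40 min and at 6.25, 6.21 and 6.11 after 70 min. These later groups lay above the first, but the differences of 0.56 (adjusted p = 0.451) and 0.72 (adjusted p = 0.220) from 10 min did not pass the test. Id2 was at 11.43, 11.43 and 11.42 after 10 min and at 11.68, 11.69 and 11.73 after 70 min, without overlap, and was higher by 0.27 (SE 0.09, adjusted p = 0.0405). Id1 was at 3.56, 3.49 and 3.45 after 10 min and at 3.28, 3.15 and 3.08 after 70 min, also without overlap, and its difference of -0.33 (adjusted p = 0.222) did not pass the test. Of Id1, Id2 and Id3, only Id2 was called, beside 6.09% of all genes, and the call was lost without PD0325901 replicate 1, 2 or 3 (0.25 to 0.29). In a fit of the compared groups alone, Id1 and Id3 were called at 70 min and Id3 at 40 min as well. In the fit of all groups no member was called at 40 min against 10 min, beside 3.58%. At 10 min against DMSO limma called 0 of 11971 genes (0%), with 245 at an unadjusted p under 0.05. DMSO against untreated WT cells, which differ in solvent and experiment, gave no call for Id1, Id2 or Id3, beside 23.6% of all genes called. Id3 (-0.38) and Id1 (0.22) did not overlap WT there and were both called in a fit of those groups alone, and this Id3 offset runs the same way as the PD0325901 differences from WT. The LPS response of Id3 under PD0325901, against the level at the same time with the inhibitor alone, was 1.78 at 1 h. It differed from that of WT by -1.07 (SE 0.37, adjusted p = 0.0958) and was called only with the replicate block or in a fit of the compared groups alone, beside 3.58% of all genes. At 0.5 h no member response was called either, beside 1.49%.

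Elk1-/-Elk4-/- cells, which lack Elk1 and Elk4 but keep the related factor gene Elk3, showed the reverse for Id3. Without LPS the 4 libraries were at 5.66, 5.86, 5.67 and 5.60, a difference of -0.23 from WT (adjusted p = 0.213), and no member was called beside 51.8% of all genes. At 0.5 h they were at 8.89, 8.66, 8.54 and 8.92, at 1 h at 9.57, 9.57, 9.44 and 9.80, and at 2 h at 7.35, 7.51, 7.48 and 7.57. At each LPS time every Elk1-/-Elk4-/- library was above every WT library. Id3 was higher by 1.14 (SE 0.15, adjusted p = 3.78e-08), 0.81 (SE 0.15, adjusted p = 1.53e-05) and 0.43 (SE 0.17, adjusted p = 0.0292).

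The number of members called was 2 of 3 at 0.5 h, 1 at 1 h and 2 at 2 h, beside 44.4%, 53.4% and 50.8% of all genes. Id1 at 0.5 h was at 4.20, 3.73, 3.80 and 3.98 and was higher than in WT by 0.34 (SE 0.12, adjusted p = 0.0146). The Id1 groups overlapped, and the call was lost without WT replicate 5 (0.27) or Elk1-/-Elk4-/- replicate 1 (0.25). Id2 at 2 h was at 11.95, 12.14, 12.30 and 11.74 and lower by 0.21 (SE 0.09, adjusted p = 0.0444), a call lost without WT replicate 6 (-0.12) or Elk1-/-Elk4-/- replicate 1 (-0.19) or 4 (-0.12). The 2 h call of Id3 was lost without WT replicate 4 (0.41) or Elk1-/-Elk4-/- replicate 2 (0.42), 3 (0.43) or 4 (0.40), and with the replicate block (0.39). At 0.5 h the Id3 difference was 1.61 against WT replicates 4 to 6 and 0.67 against replicates 7 to 9.

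The LPS response of Id3 exceeded that of WT at all 3 times. The difference was 1.37 (SE 0.22, adjusted p = 1.92e-04) at 0.5 h, where 0.0589% of all genes, 7 of 11884, were called. It was 1.04 (SE 0.22, adjusted p = 0.00311, beside 1.35%) at 1 h and 0.66 (SE 0.23, adjusted p = 0.0370, beside 16.9%) at 2 h. At 1 h the rise itself was 3.90 against 2.85 in WT. At 0.5 h the difference in response was 0.83 against WT replicates 7 to 9 alone, and it was no longer called in a fit of only the 4 groups compared, and the 2 h call was lost without WT replicate 4 or 6 or any 1 Elk1-/-Elk4-/- replicate (0.60 to 0.71). All 5 of 5 neutrophil markers tested were higher in Elk1-/-Elk4-/- cells at every time, with and without LPS, by a median of 3.78 without LPS. The summed B lymphocyte markers were at 6.63 to 7.08 in Elk1-/-Elk4-/- cells without LPS and at 5.85 to 6.47 in WT. The part of these cell type markers in the Id3 values was not tested.

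**Figure D2:**
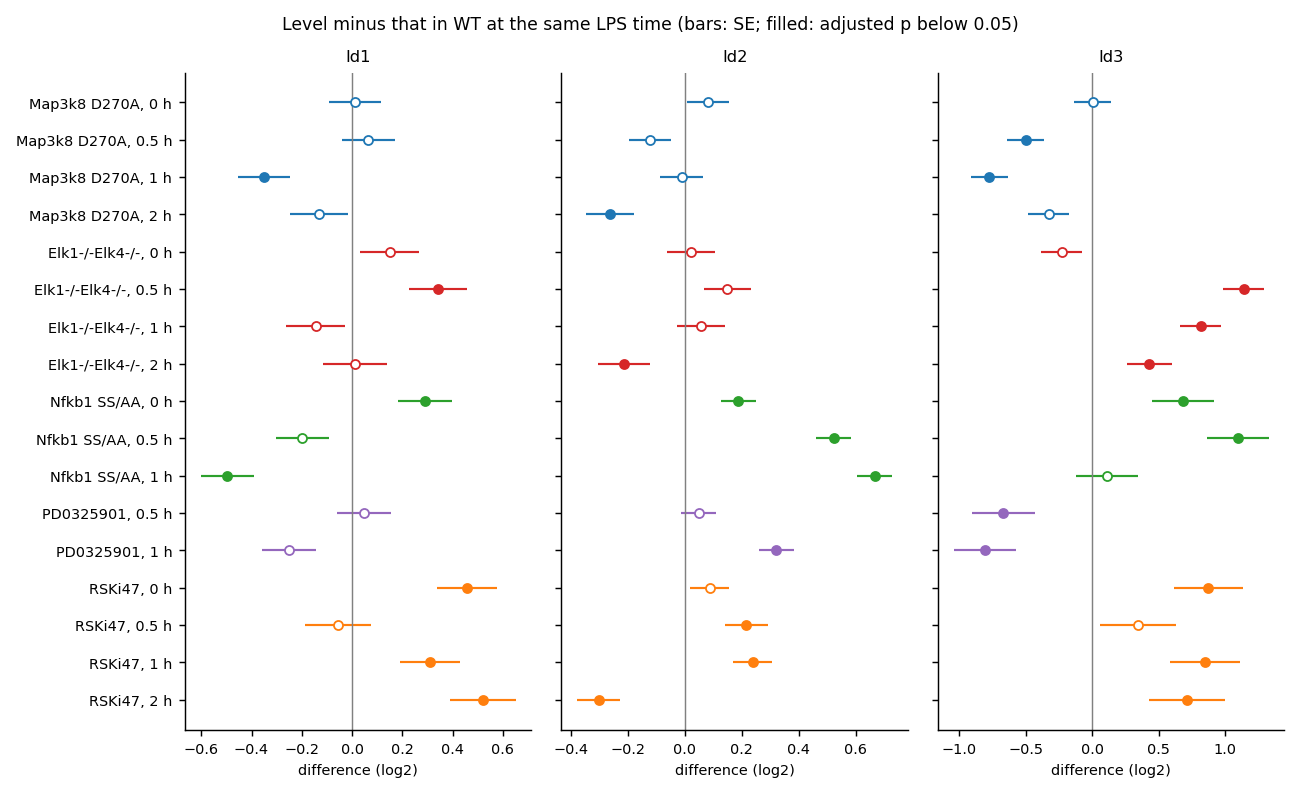
Level of Id1, Id2 and Id3 minus that in WT cells at the same LPS time (horizontal axis, log2 difference), for each mutation or inhibitor and time (rows). Bars are the SE, and filled points passed an adjusted p below 0.05. Id3 lies left of 0 at 1 h in Map3k8[D270A] (-0.77) and PD0325901 (-0.81) and right of 0 in Elk1-/-Elk4-/- cells (0.81).

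Nfkb1[SS/AA] cells, in which IKK cannot release TPL-2 from p105, did not follow the Map3k8[D270A] values for Id3. Without LPS their Id3 ran from 6.16 to 7.75 (median 6.46), above all 6 WT libraries, and at 0.5 h it ran from 8.05 to 9.40 (median 8.71), overlapping the highest WT libraries. At 1 h it ran from 8.53 to 9.56 (median 8.81) and overlapped WT. Id3 was higher by 0.69 (SE 0.23, adjusted p = 0.0171) without LPS and by 1.09 (adjusted p = 1.09e-04) at 0.5 h, and differed by 0.11 (adjusted p = 0.724) at 1 h.

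Id2 was higher in Nfkb1[SS/AA] cells at all 3 times. It ran from 11.56 to 11.69 (median 11.66) without LPS, from 12.66 to 12.79 at 0.5 h and from 13.19 to 13.41 (median 13.38) at 1 h, and the last 2 groups lay above every WT library of the same time. The call without LPS was lost against WT replicates 4 to 6 alone (0.15). The differences were 0.19 (SE 0.06, adjusted p = 0.0129), 0.52 (adjusted p = 2.06e-11) and 0.67 (adjusted p = 1.86e-16). Id1 went from higher to lower: it ran from 3.39 to 4.02 (median 3.62) without LPS, 3.25 to 3.49 (median 3.42) at 0.5 h and 3.60 to 3.90 (median 3.76) at 1 h. It was higher by 0.29 (SE 0.11, adjusted p = 0.0291) without LPS, differed by -0.20 at 0.5 h, which was not called, and was lower by 0.50 (adjusted p = 7.44e-05) at 1 h, where every library lay below every WT library.

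Of Id1, Id2 and Id3, 3 were called without LPS, 2 at 0.5 h and 2 at 1 h, beside 32%, 32.3% and 42.5% of all genes. The Id3 call without LPS was lost without Nfkb1[SS/AA] replicate 4 (0.46) and against WT replicates 4 to 6 alone (0.61), and that at 0.5 h was lost against WT replicates 7 to 9 alone (0.63). The Id1 call without LPS was lost without WT replicate 4 (0.27) or Nfkb1[SS/AA] replicate 4 (0.22) or 6 (0.26), and against WT replicates 7 to 9 alone (0.25). In their LPS response at 1 h, Id1 differed from WT by -0.78 (SE 0.15, adjusted p = 7.28e-05) and Id2 by 0.48 (SE 0.09, adjusted p = 2.12e-05), beside 6.07% of all genes called. At 1 h 3 of 5 neutrophil markers were higher in these cells, and their part was not tested. At 0.5 h no response was called, beside 0.309%. With the replicate number as a block, the 0.5 h responses of Id1 (-0.49, adjusted p = 0.0415) and Id2 (0.33, adjusted p = 0.00164) were called as well.

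RSKi47 cultures were compared with WT to ask what RSK, a kinase below ERK, does to these genes. Id3 was uneven among replicates. Without LPS the libraries were at 6.10, 6.03, 6.26 and 8.80, at 0.5 h at 7.65, 8.08 and 8.15, at 1 h at 10.47, 8.95, 9.06 and 10.03, and at 2 h at 7.16, 7.42, 7.49 and 8.95. Replicate 4 was the highest without LPS and at 2 h, and replicates 1 and 4 were the highest at 1 h. Id3 was higher than in WT by 0.87 (adjusted p = 0.00331) without LPS, 0.85 (adjusted p = 0.00441) at 1 h and 0.71 (adjusted p = 0.0304) at 2 h.

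Single libraries decided those Id3 calls. Without replicate 4 the difference was 0.21 without LPS and 0.31 at 2 h, and without replicate 1 it was 0.57 at 1 h, none of them called. The 2 h call was also lost without WT replicate 4 or 7 (0.69 each), the 1 h call against WT replicates 4 to 6 alone (0.71), and the call without LPS in a fit of the compared groups alone. The collagen gene Col1a1 was at 9.03 in replicate 4 without LPS and at 4.69, 4.54 and 3.93 in the other replicates, and Col1a2 was at 7.28 against 4.46 to 5.05. In the 104 libraries of the other arms, Col1a1 ran from 2.25 to 3.44 and Col1a2 from 2.71 to 4.02. The summed level of the fibroblast markers was 5.38 to 9.42 in RSKi47 cultures without LPS and 4.07 to 4.45 in WT, while Col3a1 (1.64), Dcn (-0.88), Lum (-2.06) and Pdgfra (-0.47) were low in replicate 4. At 1 h the library with the highest Id3, replicate 1, had Col1a1 at 4.44 and Col1a2 at 4.91, within the range of the other replicates, and replicate 4 had 4.85 and 6.98. Without LPS the summed endothelial (8.09 to 8.55) and glial (10.69 to 10.84) markers lay above WT (7.18 to 7.97 and 10.43 to 10.64). Those of B lymphocytes (5.41 to 5.52) lay below WT (5.85 to 6.47). In these lists 5 of 6, 3 of 5 and 3 of 4 genes were below the filter in every library. The part of any of these cell type markers, or of neutrophil markers, in the Id3 values was not tested.

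Id2 with RSKi47 was more even. At 0.5 h it was at 12.47, 12.35 and 12.45, at 1 h at 12.88, 12.81, 13.01 and 12.96, and at 2 h at 11.96, 11.90, 12.03 and 11.90. It was higher than in WT by 0.22 (adjusted p = 0.0133) at 0.5 h and 0.24 (adjusted p = 0.00234) at 1 h, and lower by 0.30 (adjusted p = 4e-04) at 2 h, where the groups did not overlap. The 0.5 h call was lost without RSKi47 replicate 1 (0.19) or 3 (0.20), with quantile normalization (0.14) and against WT replicates 7 to 9 alone (0.19), and the 1 h call against WT replicates 4 to 6 alone (0.17). Its LPS response at 2 h was smaller than that of WT by 0.39 (difference -0.39, SE 0.10, adjusted p = 0.00247, beside 21% of all genes called), the only member response called under RSKi47. Against WT replicates 7 to 9 alone, which leave 1 WT library at 2 h, that response (-0.28) and the 2 h level (-0.16) were not called. At 0.5 h and 1 h none was called, beside 0.0251% and 5.54%.

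Id1 was at 3.82, 3.37, 3.93 and 4.16 without LPS, 4.73, 4.47, 4.34 and 4.73 at 1 h, and 3.60, 3.92, 3.82 and 4.43 at 2 h with RSKi47. It was higher by 0.46 (adjusted p = 7.78e-04), 0.31 (adjusted p = 0.0242) and 0.52 (adjusted p = 4.69e-04) at these times. At 0.5 h it differed by -0.06 (adjusted p = 0.752), which was not called. DMSO cultures, which carry another experiment label, lay above untreated WT for Id1 without LPS by 0.22 (adjusted p = 0.213). The part of the experiment in the RSKi47 values cannot be told apart. Against WT replicates 7 to 9 alone the 1 h difference was 0.16 and the 2 h difference 0.47, neither of them called. The 1 h call was also lost without WT replicate 4 or 5 or RSKi47 replicate 1 or 4 (0.25 to 0.28), and with quantile normalization (0.25). Of Id1, Id2 and Id3, the number called was 2 in cells not given LPS, 1 after 0.5 h, 3 after 1 h and 3 after 2 h, beside 53%, 48.2%, 52.8% and 52.1% of all genes.

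**Figure D3:**
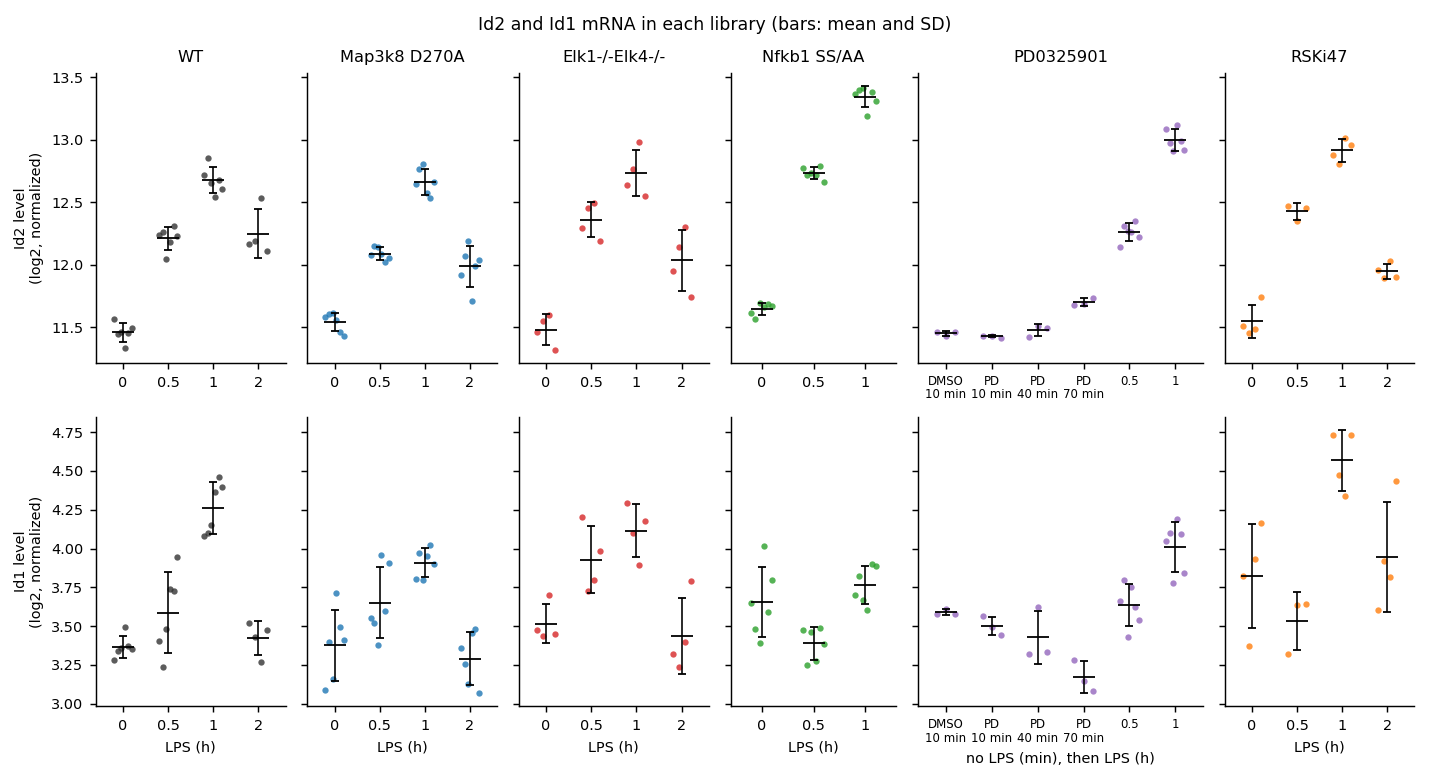
Id2 and Id1 mRNA level (vertical axes, normalized log2) in each library by LPS time in h, or by time with DMSO or PD0325901 in min, in panels for each genotype or inhibitor. Points are libraries, and bars are the mean and SD. The 1 h mean of Id2 is 12.68 in WT and 13.34 in Nfkb1[SS/AA] cells, and that of Id1 is 4.26 and 3.76.

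**Figure D4:**
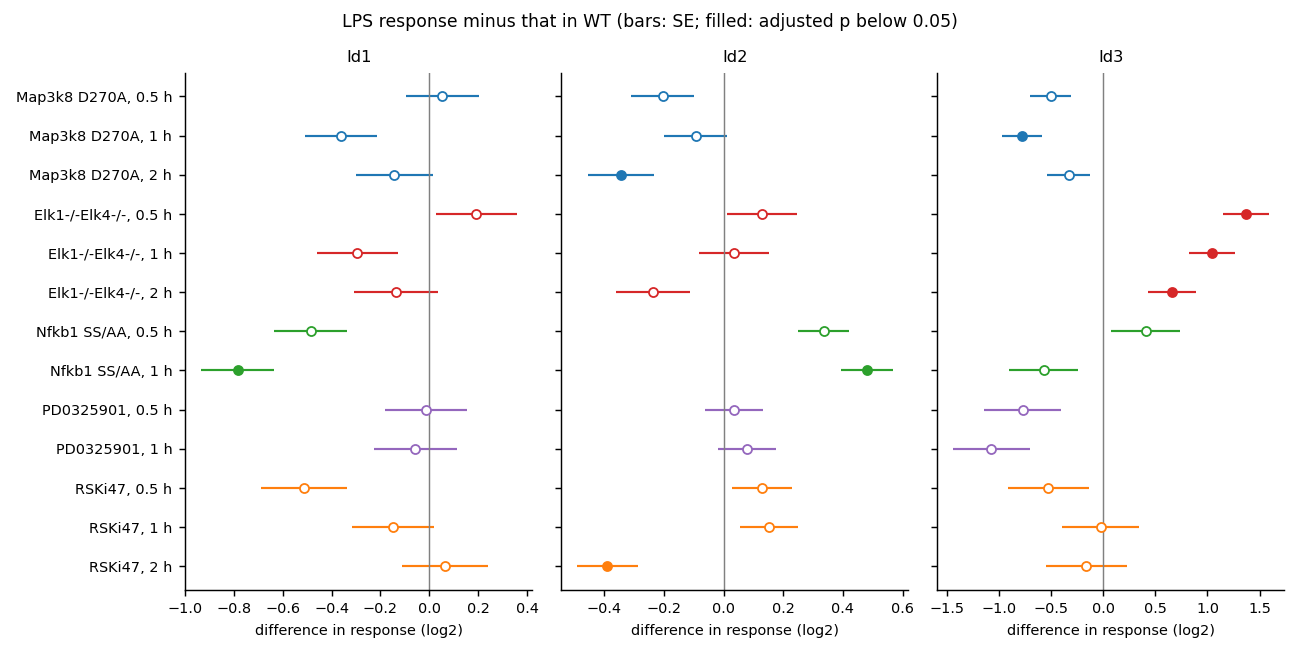
LPS response of Id1, Id2 and Id3 minus that in WT cells at the same time (horizontal axis, log2 difference), for each mutation or inhibitor and time (rows). Bars are the SE, and filled points passed an adjusted p below 0.05. Id3 in Elk1-/-Elk4-/- cells is furthest to the right, at 1.37, 1.04 and 0.66.

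Hey1 and Hes1, the Notch-type repressors, were mostly below the filter of 3.32. Hey1 ran from 2.47 to 3.46 (median 2.86) over all libraries. It passed the filter only through RSKi47, since the 6 libraries that reached 3.32 were all of that inhibitor, so its values against WT, RSKi47 and Nfkb1[SS/AA] alike, are given as a description, with no test. Its RSKi47 libraries were at 2.95, 3.46, 3.11 and 3.41 without LPS, 3.34, 3.14 and 3.41 at 0.5 h, 2.89, 2.91, 3.08 and 3.33 at 1 h and between 2.88 and 3.45 at 2 h. The WT means were 2.80, 2.71, 2.74 and 2.81, and RSKi47 lay above them by 0.43, 0.59, 0.31 and 0.29.

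In Nfkb1[SS/AA] cells the Hey1 means were 3.04 without LPS and 3.01 at 0.5 h. The means lay above those of WT by 0.24 without LPS, 0.30 at 0.5 h and 0.26 at 1 h, or by 0.13 and 0.22 at the first and last of these times against WT replicates 4 to 6 alone. Every Nfkb1[SS/AA] and WT library was below the filter. Map3k8[D270A] and Elk1-/-Elk4-/- means ran from 2.71 to 2.82 and from 2.66 to 2.90, and were not tested because that comparison's filter left Hey1 out.

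Hes1 was not tested, as no library reached the filter. It ran from 0.62 to 1.26 (median 0.70), and 49 of 119 libraries were within 0.05 of the lowest value. Its highest group was PD0325901 at 40 min, with 1.21, 0.96 and 0.86. In WT it was at 0.80 to 1.26 in replicates 4 to 6 and at 0.62 to 0.76 in replicates 7 to 9. At these values whether Hes1 is expressed cannot be read from the table.

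**Figure D5:**
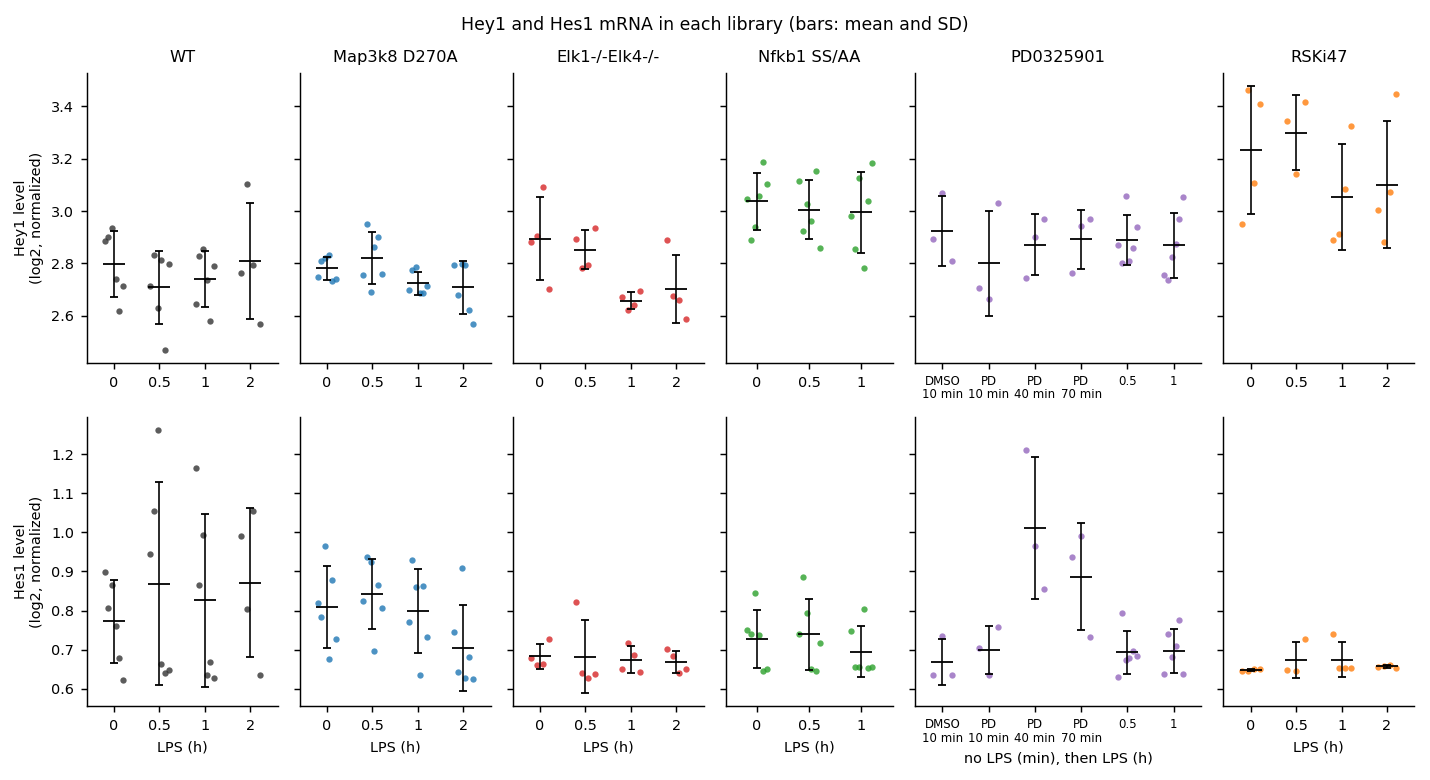
Hey1 and Hes1 mRNA level (vertical axes, normalized log2) in each library by LPS time in h, or by time with DMSO or PD0325901 in min, in panels for each genotype or inhibitor. Points are libraries, and bars are the mean and SD. Hey1 spans 2.47 to 3.46 with its upper values in RSKi47 libraries, and Hes1 spans 0.62 to 1.26.

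Ordered over the 25 groups, Id3 was highest with RSKi47 at 1 h (mean 9.63, SD 0.74) and lowest after 10 min of PD0325901 (5.46). The next highest group, Elk1-/-Elk4-/- cells at 1 h (9.59), lay within that SD. Id2 was highest in Nfkb1[SS/AA] cells at 1 h (13.34) and lowest after 10 min of PD0325901 (11.43). Id1 was highest with RSKi47 at 1 h (4.57) and lowest after 70 min of PD0325901 (3.17). Of the 24 pairs of neighbours in each order, 5 differed by more than their SDs for Id3, 6 for Id2, 1 for Id1, 1 for Hes1 and 0 for Hey1. The rest of each order runs within the spread of the libraries.

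The genes whose 25 group means ran most like those of Id3 were Klf6 (Pearson r = 0.933), Mcl1 (0.909) and Id2 itself (0.896). For Id2 they were Ifrd1 (0.953), Klf6 (0.931) and the chemokine gene Cxcl2 (0.928). For Id1 they were Areg (0.837), Spty2d1 (0.832) and Fam110a (0.823). For Hey1 they were Tst (0.913), Msrb1 (0.899) and Tgfbi (0.891), but Hey1 entered only through RSKi47 libraries, where it is high, so nothing is drawn from these. Between members, Id1 had r = 0.711 with Id3 and 0.580 with Id2. These are descriptions over groups that share libraries, LPS times and normalization.

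Of the other inhibitory HLH factors 3 of 11 were tested. Bhlhe40 and Bhlhe41 encode bHLH repressors of the circadian clock and Hes6 an atypical Hes protein. In WT at 1 h 1 rose and 2 fell, beside 46.8% of all genes called, with Bhlhe40 higher by 1.31, Hes6 lower (-0.52) and Bhlhe41 lower (-0.43). In Elk1-/-Elk4-/- cells none was higher and 2, 3, 3 and 2 were lower at the 4 times, beside 51.8%, 44.4%, 53.4% and 50.8% of all genes, with Bhlhe40 at -1.09 at 1 h and Bhlhe41 at -1.06 at 2 h. In Map3k8[D270A] cells 1 was lower at 1 h (Bhlhe40, -0.45) and 2 at 2 h, beside 9.79% and 27.7%. With PD0325901 and LPS 1 was higher and none lower at each time, Bhlhe40 at 0.40 (adjusted p = 3.43e-05) at 0.5 h and 0.24 (adjusted p = 0.0111) at 1 h, beside 29.4% and 35.7%. With RSKi47 2 were higher at every time, with Bhlhe40 at 1.19, 1.28, 0.87 and 1.02 and Bhlhe41 at 0.41, 0.47, 0.89 and 0.76, beside 53%, 48.2%, 52.8% and 52.1% of all genes. Hes6 was lower there without LPS (-0.17, adjusted p = 0.0185). In Nfkb1[SS/AA] cells 2 were higher at every time, beside 32%, 32.3% and 42.5%, with Bhlhe40 at 0.98 without LPS and at 0.62 at 0.5 h. DMSO cultures, of WT genotype with no inhibitor but another experiment label, also had Bhlhe40 higher than untreated WT by 0.86 (adjusted p = 1.39e-11), and the part of the experiment in the PD0325901, Nfkb1[SS/AA] and RSKi47 values cannot be told apart.

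The HLH partners and corepressors, 11 of 11 tested, hold the E proteins that Id proteins bind, the class II factors Tal1 and Lyl1 and the Groucho/TLE corepressors. In WT 2 rose and 0 fell at 0.5 h, 3 rose and 5 fell at 1 h, and 3 rose and 6 fell at 2 h, beside 11.6%, 46.8% and 71.5% of all genes called. Lyl1 was lower by 0.79 at 1 h (difference -0.79) and by 2.33 at 2 h (-2.33), and Tle3 higher by 1.68 at 2 h. The median of the list at 2 h was -0.14, against -0.02 over all genes. Tle3 at 2 h was lower than WT in Map3k8[D270A] (-1.42), Elk1-/-Elk4-/- (-0.54) and RSKi47 (-1.09) cultures. Tle4, another Groucho/TLE gene, went the other way in Elk1-/-Elk4-/- cells at 2 h (0.50, adjusted p = 8.26e-14). The E protein gene Tcf3 was lower in Elk1-/-Elk4-/- cells by 0.34 without LPS (-0.34) and by 0.27 at 1 h (-0.27).

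Of 34 genes of the BMP and TGF-beta pathway, 26 were tested against WT in the knockout and Map3k8 fit and 27 in the fit of all libraries. In WT 5 rose and 0 fell at 0.5 h, 11 rose and 4 fell at 1 h, and 13 rose and 7 fell at 2 h, beside the 11.6%, 46.8% and 71.5% of all genes called. Among the 13 the activin subunit gene Inhba had a WT mean below the filter without LPS (2.91) and above it at 2 h (4.74). The largest at 1 h were Gdf15, a distant TGF-beta family ligand already higher by 2.45 at 0.5 h, Skil, an inhibitor of Smad proteins (2.83), and the activin receptor gene Acvr2a (1.36). The ligand gene Bmp2 was higher by 1.04 at 0.5 h and lower than without LPS at 2 h (-0.92). At 1 h Map3k8[D270A] cells had 2 higher and 2 lower, with Gdf15 at -0.87 and Bmp2 at -0.59, and PD0325901 had 4 higher and 12 lower, with Bmp2 at -1.16, beside 9.79% and 35.7% of all genes called. Elk1-/-Elk4-/- cells had 7 higher and 4 lower at 1 h, with the BMP receptor gene Bmpr1a at 0.87, beside 53.4%. Nfkb1[SS/AA] cells had Bmp2 at -1.30, -1.99 and -1.87 at the 3 times. In DMSO cultures, with neither inhibitor nor mutation, Bmp2 differed from untreated WT by -1.12 (adjusted p = 3.49e-05), close to the differences with PD0325901 at 1 h and in Nfkb1[SS/AA] cells without LPS. Bmp2 with PD0325901 at 0.5 h was at -1.53, which like the Nfkb1[SS/AA] values with LPS is further from 0. With RSKi47 16, 17, 15 and 11 were higher and 3, 3, 3 and 2 lower at the 4 times, beside 53%, 48.2%, 52.8% and 52.1% of all genes called. The median without LPS was 0.22 against 0.01 over all genes, and Smad7, an inhibitory Smad gene, was higher by 0.75 without LPS and 0.77 at 0.5 h. Smad6, counted among the higher genes there, passed the filter only with its RSKi47 libraries.

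Of 34 genes of the Notch pathway 29 were tested. In WT 7 rose and 2 fell at 1 h, with the ligand gene Jag1 at 2.69, and 13 rose and 12 fell at 2 h, with the receptor gene Notch1 at 1.67, beside 46.8% and 71.5% of all genes called. The ligand gene Dll1, counted among the 13, had WT means of 2.65 without LPS and 5.25 at 2 h, so it was above the filter in WT only in the group where it was high. Map3k8[D270A] cells had Notch1 at -1.12 and the glycosyltransferase gene Lfng at -0.69 at 2 h, among 2 higher and 5 lower, beside 27.7%. In Elk1-/-Elk4-/- cells without LPS 6 were higher and 13 lower, with Mfng, a gene of the same enzyme family, at -0.96 and Numb, an inhibitor of Notch, at 0.65, beside 51.8%. With RSKi47 without LPS 15 were higher and 5 lower, with Jag1 at 0.85 and Notch4 at 0.78, beside 53%. Hes1 stayed below the filter in all of these groups, as given above.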

How the data were processed

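RNA was sequenced as single-end, strand-specific reads (TruSeq libraries). The authors aligned reads with STAR to mm10 and estimated counts per RefSeq gene with RSEM. The submitters' processing notes name STAR 2.5.1b, RSEM 1.2.29 and DESeq2 1.10.1. The deposited values are on a log2 scale, normalized across libraries by the authors, and how they were transformed is not stated by the labels, file or methods, so depth per library is unknown and no counting interval was computed. One value above 25 was treated as missing. The labels do not tie libraries to animals, so p values measure the spread between these libraries, which the methods call biological replicates.

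Groups came from the sample labels. Values were compared as deposited with limma 3.58.1 in R 4.3.3, with 1 mean per group and no trend. One fit held the 62 WT, Map3k8[D270A] and Elk1-/-Elk4-/- libraries and covered 11884 genes that reached a linear 10 (3.32 on the log2 scale) in at least 4 libraries. The other held all 119, needed 3 libraries and tested 11971 genes, for Nfkb1[SS/AA] and the inhibitors. P values were adjusted by Benjamini-Hochberg over the genes tested, and a call is an adjusted p below 0.05. The scripts were tested on simulated data. Promoter windows were read from RefSeq with Python 3.11.15, and figures drawn with matplotlib 3.10.9.

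The members, lists, tests and alternatives were chosen with earlier results of these data known. The text names all members, at most 3 of the largest called genes per list and comparison, and the 3 genes most like each member that passed the filter. Same-numbered libraries of an arm deviated together (correlation over 0.1) in 30 of 30 pairs of LPS times in WT and 18 of 18 in Nfkb1[SS/AA], so numbers were taken to pair libraries there. It held in 34 of 36 pairs in Map3k8[D270A], 20 of 21 with RSKi47, 20 of 24 in Elk1-/-Elk4-/- and 14 of 33 with PD0325901. The highest correlation was with the same number in 23 of the 30 pairs in WT and 14 of the 18 in Nfkb1[SS/AA]. In Map3k8[D270A] it was so in 34, with RSKi47 in 20, in Elk1-/-Elk4-/- in 18 and with PD0325901 in 9. Pairing by number is therefore an assumption, also in WT and Nfkb1[SS/AA]. Alternatives were no filter, median centring, quantile normalization, a trended robust prior, a fit of the compared groups alone, a replicate block, either WT set, averaged PD0325901 libraries, a difference of at least 1, and leaving out each replicate.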

Additional observations from a re-analysis of the deposited data

Results flagged for a closer look

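Within groups of 4 to 6 libraries, a single value stood further from the rest than a gap test allows in 6 of 100 gene and group combinations, where about 1 in 20 is flagged by chance. For Id3 these were RSKi47 replicate 4 without LPS at 8.80 (next 6.26), Nfkb1[SS/AA] replicate 4 without LPS at 7.75 (next 6.53) and Map3k8[D270A] replicate 4 at 1 h at 7.81 (next 7.99). For Id1 it was Elk1-/-Elk4-/- replicate 3 without LPS at 3.70 (next 3.48). For Hes1, below the filter throughout, they were Elk1-/-Elk4-/- replicate 1 at 0.5 h at 0.822 and RSKi47 replicate 1 at 1 h at 0.741.

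Of 46 LPS responses compared with that in WT by limma, 8 differed after adjustment over all genes. The 46 include those of Hey1, a description only, and the share of all genes called ran from 0.0251% to 21% over these comparisons. Id3 differed in Map3k8[D270A] cells at 1 h (-0.78, beside 2.02% of all genes). It differed in Elk1-/-Elk4-/- cells at 0.5 h (1.37, beside 0.0589%), 1 h (1.04, beside 1.35%) and 2 h (0.66, beside 16.9%). Id2 differed in Map3k8[D270A] cells at 2 h (-0.34, beside 15.5%), in Nfkb1[SS/AA] cells at 1 h (0.48, beside 6.07%) and with RSKi47 at 2 h (-0.39, beside 21%). Id1 differed in Nfkb1[SS/AA] cells at 1 h (-0.78, beside 6.07%).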

How the results depend on the processing

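Each comparison's number of member calls was recomputed under every alternative, and no called value changed sign under any of them. Requiring a difference of at least 1 as well took the calls for LPS in WT from 7 to 4, for Map3k8[D270A] from 4 to 0, for Elk1-/-Elk4-/- from 5 to 1, for Nfkb1[SS/AA] from 10 to 1, for PD0325901 with LPS from 3 to 0, for PD0325901 without LPS from 1 to 0, for RSKi47 from 13 to 0 (3 of the 10 and 4 of the 13 are Hey1, a description only because it passed the filter through RSKi47 libraries alone), for responses under the Map3k8 and Elk mutations from 5 to 2 and for the other responses from 3 to 0. A fit of the compared groups alone gave 2 for Map3k8[D270A], 5 for PD0325901 with LPS, 4 for PD0325901 without LPS, 5 for the other responses and 2, against 0, for DMSO against untreated WT. WT replicates 4 to 6 as control gave 2 for Map3k8[D270A] and 6 for Nfkb1[SS/AA] (losing Id2, Id3 and Hey1 without LPS and Hey1 at 1 h), and WT replicates 7 to 9 gave 3 for Elk1-/-Elk4-/- and 8 for RSKi47 (4 over Id1, Id2 and Id3, against 9). For Map3k8[D270A] each WT set was run with only 3 mutant libraries per time, so the control set and the number of mutant libraries changed together. No filter gave 2 for PD0325901 without LPS. With the replicate block the other responses went from 3 to 6, the Id3 calls in Map3k8[D270A] cells at 0.5 h and in Elk1-/-Elk4-/- cells at 2 h were lost, and the calls for WT, Nfkb1[SS/AA], PD0325901 and RSKi47 against WT kept their counts. Leaving out 1 replicate gave 2 to 4 for Map3k8[D270A] (2 without WT replicate 8), 3 to 5 for Elk1-/-Elk4-/- (3 without its replicate 1), 8 to 10 for Nfkb1[SS/AA], 2 to 5 for PD0325901 with LPS (5 without WT replicate 5), 0 to 1 for PD0325901 without LPS, 9 to 13 for RSKi47 (6 to 9 of 12 over Id1, Id2 and Id3 alone, with 6 without RSKi47 replicate 1 or 4), 3 to 5 for responses under the Map3k8 and Elk mutations (3 without WT replicate 6) and 3 to 4 for the others. Under all of these except the minimum difference of 1, the calls held for LPS in WT, for Id3 in Map3k8[D270A] cells at 1 h and in Elk1-/-Elk4-/- cells at 0.5 h and 1 h, for the Id3 response in Elk1-/-Elk4-/- cells at 1 h, for Id2 at 0.5 h and 1 h and Id1 at 1 h in Nfkb1[SS/AA] cells, for Id2 with PD0325901 at 1 h, for the Id1 and Id2 responses in Nfkb1[SS/AA] cells at 1 h and for Id1 with RSKi47 without LPS. The Map3k8[D270A] difference of Id3 at 0.5 h was also lost with no filter, with median centring, with the replicate block and in the fit of the compared groups. Of the 9 RSKi47 calls over Id1, Id2 and Id3, quantile normalization lost Id2 at 0.5 h, Id1 at 1 h and Id3 at 2 h, the fit of the compared groups Id3 without LPS and at 2 h, WT replicates 4 to 6 Id2 and Id3 at 1 h and Id3 at 2 h (and called Id3 at 0.5 h), and WT replicates 7 to 9 Id2 at 0.5 h, Id1 at 1 h and all 3 genes at 2 h. The causes were not tested. Over 131 single results, 51 of them called (7 for Hey1), alternatives left 2257 values on the same side of the threshold, moved 98 calls out and 33 in, and changed the sign of 76 values that were not called. Depth per library is unknown, and Hes1, Hey1 and Id1 are nearest the filter or below it.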

Other observations

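Without the filter on low values, limma called Hes1 in 4 comparisons: with PD0325901 and LPS at 0.5 h against WT (-0.18), after 40 min of PD0325901 against 10 min (0.31), with RSKi47 at 2 h against WT (-0.21) and in the LPS response under PD0325901 at 0.5 h (-0.41). All lie in the range from 0.62 to 1.26, where no library reached the filter.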
